A study of Mus musculus with 12 samples.

Results

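The 10 genes described here encode the MHC class II presentation pathway and were chosen by symbol. They are the class II chains H2-Aa, H2-Ab1 and H2-Eb1, the invariant chain Cd74, the peptide exchange factors H2-DMa and H2-DMb1, their regulators H2-Oa and H2-Ob, the transactivator Ciita and the protease Ctss. All 10 were found among 50600 gene IDs counted in each library and all 10 were among the 16052 genes with enough reads to be tested.

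RNA of homogenized tissue from 12 mice was sequenced after poly(A) selection, with 3 mice in each of 4 groups. The control thymocytes (Ctrl) came from male Dnmt1 fl/fl mice of 20 to 25 wk, where Dnmt1 is flanked by loxP sites and Cre is absent. The KO thymocytes came from Dnmt1 fl/fl CD4-CRE mice of 20 to 21 wk, in which Cre under Cd4 control deletes the gene in T-lineage cells, and the second of them (KO2) was the only female of the series. The ALK samples were T-cell lymphoma cells of male NPM-ALK+ mice of 22 to 31 wk, which express the human NPM-ALK fusion kinase in T-lineage cells under Cd4 control. The ALKKO thymocytes came from male mice of 19 to 25 wk with both the NPM-ALK transgene and the Dnmt1 fl/fl CD4-CRE alleles. Ctrl, KO and ALKKO thus share the floxed allele, and ALK, as labelled, does not. The study gives the genetic background of its mice as mixed. The tumors were compared with whole thymus preparations, so tumor against thymus and transgene against no transgene cannot be told apart in ALK.

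MHC class II molecules present peptides to CD4+ T cells. An alpha chain and a beta chain pair in the endoplasmic reticulum, where the invariant chain CD74 fills the groove. In endosomes, cathepsins cut CD74 down to a short groove-filling fragment, H2-DM exchanges this fragment for a peptide, and H2-O restrains H2-DM. CIITA is the factor that switches the class II chain genes and Cd74 on. It acts through a complex of RFX, CREB and NF-Y proteins that sits on conserved boxes before these genes. In the mouse thymus class II is carried by epithelial cells, dendritic cells, B cells and macrophages, and mouse thymocytes themselves make little of it.

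The libraries held 12473857 to 18864327 reads assigned to genes. Levels are given as counts scaled to a library of 1000000 reads (CPM) with edgeR's TMM normalization, and group values as mean ± SD over 3 mice. Reads counted on Alk were at 46.5 ± 10.3 CPM in ALK and 53.0 ± 3.40 CPM in ALKKO, against 0.232 ± 0.174 in Ctrl and 0.218 ± 0.0490 in KO. Dnmt1 was at 230.0 ± 20.8 CPM in KO and 224 ± 19.8 in ALKKO, against 444 ± 43.6 in Ctrl, and at 597 ± 206 in ALK. All 3 KO and all 3 ALKKO libraries were below all 3 Ctrl libraries in Dnmt1. KO2 stood apart from the other thymus libraries in the 10 genes and in cell type markers, and results that rest on it are given with and without it. The label of T-lineage cells was checked against 13 T-lineage genes. Their summed level was 8920.3 to 10632 CPM in Ctrl, 9331 and 9343 in KO1 and KO3, 7457 to 8766 in ALKKO, 2575 to 3008 in ALK and 3989.8 in KO2. In ALK, 6 of the 12 tested (Cd4, Cd8a, Cd8b1, Cd3g, Rag2 and Cd5) were called lower against Ctrl, where 12% of all genes were. The other 6 were not called. Among them Lck held 1235 to 1703 CPM and Cd3e 308 to 399 in ALK. Cd3d was uneven, at 212, 2.27 and 13.5 CPM in ALK1, ALK2 and ALK3, against 392 to 468 in Ctrl. Ptcra went the other way in ALK1 and ALK2, at 424, 142 and 32.5 CPM in the 3 tumors against 46.3 to 49.0 in Ctrl. Rag1 and the myeloid and B-cell factor Irf8 were listed at 0 in all 12 libraries, so nothing is read from either.

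The starts of the class II genes were searched for short letter motifs of the shared control boxes. The window of 250 bases before to 50 bases after the start site was at hand from RefSeq (GRCm38.p6) for 7 of the 10 genes, with 8 windows in all since H2-DMa has a pair of starts. It is printed for 3 genes. H2-Aa (chr17:34287774-34288073, minus strand) and H2-Eb1 (chr17:34305617-34305916, plus strand) were among the most reduced in ALK. H2-Oa (chr17:34092129-34092428, plus strand) was not called in ALK. Capitals mark matches on either strand to ACAGATG (the 3′ end of the X box), TGACG (the CREB-binding core of the neighbouring box) and ATTGG (the Y box bound by NF-Y).
H2-Aa: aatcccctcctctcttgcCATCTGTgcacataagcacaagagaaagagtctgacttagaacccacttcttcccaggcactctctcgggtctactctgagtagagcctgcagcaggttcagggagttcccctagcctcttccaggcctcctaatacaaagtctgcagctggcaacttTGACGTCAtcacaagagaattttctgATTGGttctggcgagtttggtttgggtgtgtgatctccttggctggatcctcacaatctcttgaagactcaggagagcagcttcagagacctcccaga
H2-Eb1: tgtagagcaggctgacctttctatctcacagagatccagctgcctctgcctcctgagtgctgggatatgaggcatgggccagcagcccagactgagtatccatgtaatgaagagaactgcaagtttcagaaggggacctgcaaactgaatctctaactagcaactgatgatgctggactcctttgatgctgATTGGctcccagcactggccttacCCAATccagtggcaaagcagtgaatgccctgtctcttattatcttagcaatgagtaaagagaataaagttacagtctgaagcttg
H2-Oa: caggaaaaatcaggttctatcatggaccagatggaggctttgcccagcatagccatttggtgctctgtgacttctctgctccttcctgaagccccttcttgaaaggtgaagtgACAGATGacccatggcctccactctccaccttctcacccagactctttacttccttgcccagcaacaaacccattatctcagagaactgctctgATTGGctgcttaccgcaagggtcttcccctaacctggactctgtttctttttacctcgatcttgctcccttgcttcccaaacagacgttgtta

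The Y box letters lay 48 bases before the start in H2-Aa, at 59 and, on the other strand, at 35 bases before it in H2-Eb1, and 43 bases before it in H2-Oa. They were present in 6 of the 8 windows, against 37.4% of all 32851 promoter windows of the same length. The X box letters were found in 2 windows, those of H2-Aa (232 bases before the start, on the other strand) and H2-Oa (137 bases before it), against 5.01% of all windows. The CREB core was found in 1, that of H2-Aa, where it reads on both strands in overlap 74 and 71 bases before the start, against 20.8% of all windows. The window of Ctss held no match. These matches are letters only, and no match was tested as a working box. The X letters lay at unlike distances and on opposite strands in H2-Aa and H2-Oa, so they are not shown to be a shared box. The search took exact letters, so a window without a match is not shown to lack a box.

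All 3 class II chains fell in the tumors. H2-Aa, the alpha chain of I-A, was at 678, 605 and 630.4 CPM in the 3 Ctrl mice and at 34.8, 47.0 and 94.8 CPM in the 3 ALK tumors. KO held 719, 2087 and 503 CPM and ALKKO 647, 656 and 652. The tumors lay far below every thymus library, and the ALKKO mice were almost level with each other and within the Ctrl range. The mean of H2-Aa was 10.8-fold lower in ALK than in Ctrl. The fitted difference was -3.44 ± 0.53 on the log2 scale (± SE, here and below, for fitted differences), with an adjusted p of 0.00174. Each adjusted p comes from a quasi-likelihood fit in edgeR, corrected over all genes tested after Benjamini and Hochberg.

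H2-Ab1, the beta chain of I-A, was at 701, 597 and 615 CPM in Ctrl and 94.3, 73.1 and 93.8 in ALK, a difference of -2.87 ± 0.37 (adjusted p = 0.000776). KO held 664, 1567 and 487 CPM and ALKKO 598, 583 and 632. The tumors varied less in this gene than in its partner, and again none overlapped with a thymus library. H2-Eb1, the beta chain of I-E, was at 545, 435.51 and 479.6 CPM in Ctrl and 27.2, 34.7 and 83.1 in ALK, a difference of -3.33 ± 0.57 (adjusted p = 0.00264). KO held 542, 1616 and 369 CPM and ALKKO 490.0, 496 and 509.9. The tumor with the highest level of H2-Eb1, ALK3, was also the one with the highest H2-Aa. H2-Ea, the gene of the I-E alpha chain, is annotated as a pseudogene and had 2 reads in all. The levels of H2-Eb1 are thus RNA levels only and do not show that an I-E molecule was made.

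Cd74, the invariant chain and the most abundant of the 10 transcripts, fell as well. It was at 1899, 1715 and 1729 CPM in Ctrl, 1952, 5254 and 1349 in KO and 1794, 1592 and 1557 in ALKKO. The ALK tumors held 61.4, 120.5 and 236 CPM, and ranked the 3 tumors as H2-Aa and H2-Eb1 did. The mean was 12.8-fold lower than in Ctrl, and the fitted difference of -3.68 ± 0.58 (adjusted p = 0.00179) was the largest of the 10 genes in this comparison. Ctss, the cathepsin that makes the last cuts in CD74, was not called. It was at 132, 106 and 133 CPM in Ctrl, 184, 571 and 93.7 in KO, 69.3, 92.9 and 128 in ALK and 163, 132 and 169 in ALKKO. ALK and Ctrl overlapped, and the fitted difference of -0.35 had a 95% interval from -1.49 to 0.78 (adjusted p = 0.635).

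The peptide exchange factor is a pair of chains, of which only H2-DMb1 was called. H2-DMb1 was at 39.1, 35.6 and 30.2 CPM in Ctrl and 6.85, 6.20 and 10.4 in ALK, a difference of -2.16 ± 0.50 (adjusted p = 0.0101). KO held 33.3, 113 and 24.5 CPM and ALKKO 33.9, 29.5 and 33.6. Of the 50-base stretches of its transcripts, 22.7% also occur in other genes, above all in its near copy H2-DMb2, and reads that map to more than 1 place were not counted for any gene. H2-DMa was at 60.2, 53.9 and 53.8 CPM in Ctrl, 59.6, 189 and 50.2 in KO and 63.6, 56.6 and 61.6 in ALKKO. Its 3 tumors held 35.6, 7.68 and 14.9 CPM, all below the thymus libraries but with ALK1 far above ALK2. The difference of -1.53 ± 0.57 was not called (adjusted p = 0.0665), and it was called without ALK1 (-2.31, adjusted p = 0.0135) and without KO2 (-1.56, adjusted p = 0.0212). Exons of a gene on the opposite strand cover 10.4% of the exon length of H2-DMa, and the strand setting of the counting is not given in the sources used here.

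Neither chain of the pair that restrains H2-DM was called, and their values differed. H2-Ob, the beta chain, was at 25.7, 19.1 and 24.3 CPM in Ctrl and 27.3, 19.6 and 24.8 in ALKKO. In ALK it was at 3.49, 0.611 and 5.87 CPM, all below the thymus, and the difference of -2.78 ± 1.12 was not called (adjusted p = 0.0846). KO held 18.8, 374 and 17.5 CPM, and without KO2 the change in ALK was called (-2.81, adjusted p = 0.00608). H2-Oa, the alpha chain, was at 26.4, 26.9 and 28.8 CPM in Ctrl, 26.7, 94.9 and 26.5 in KO and 30.6, 21.3 and 34.6 in ALKKO. Its tumors held 22.3, 10.7 and 24.6 CPM, which lay below the Ctrl range, ALK2 the furthest, and overlapped with ALKKO. The difference from Ctrl of -0.51 ± 0.49 was not called (adjusted p = 0.455), and its 95% interval ran from -1.58 to 0.57. Exons of an antisense gene cover 22.8% of the exon length of H2-Oa, so reads of the pair may not be told apart.

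Ciita, the master regulator, was with H2-Ob the member of lowest level per length in Ctrl and ALK. It was at 36.4, 26.3 and 57.8 CPM in Ctrl, 55.5, 285 and 43.7 in KO and 50.2, 51.9 and 66.8 in ALKKO. In ALK it was at 2.89, 3.49 and 8.45 CPM, above the floor of 3 counts in each tumor but below every thymus library. The fall of 8.13-fold in the mean stood beside a fitted difference of -3.02 ± 0.73 (adjusted p = 0.012).

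**Figure D1:**
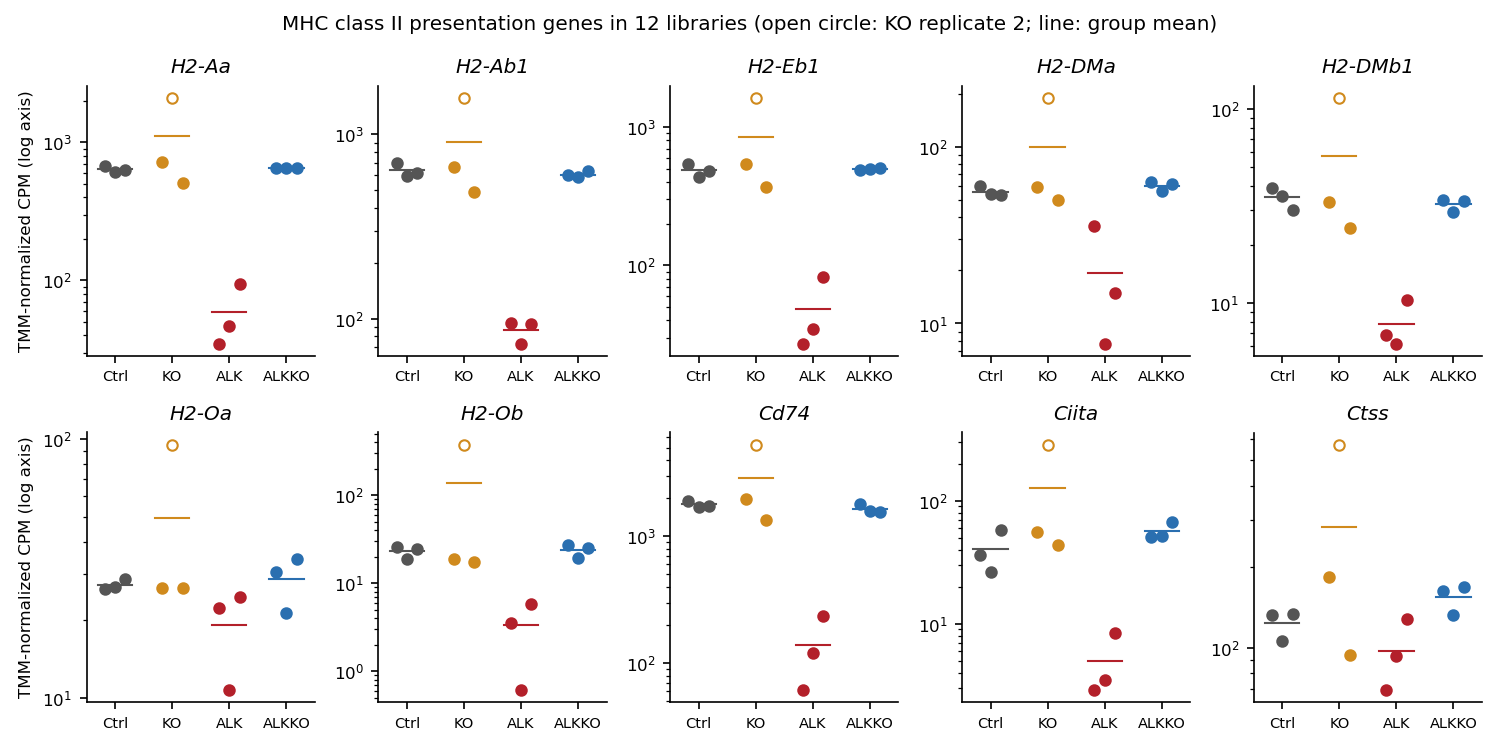
TMM-normalized CPM (log axis) of each of the 10 genes in the 12 libraries, 1 circle per mouse, with the group mean as a line and KO2 as an open circle. The 3 ALK tumors lie below the Ctrl mice in 9 of the 10 panels, overlap with them for Ctss, and KO2 is the highest circle in each panel.

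Thus 6 of the 10 genes were called lower in ALK than in Ctrl and 0 higher, against 12% of all genes tested called lower. A call needed an adjusted p under 0.05 and a log2 change above 1 in size. The tumors did not overlap with Ctrl for 9 of the 10, all lower, against 25.1% of all genes. The median log2 fold change of the 10 was -2.83, beside 0.05 over all genes tested. Without KO2 in the fit, 8 were called lower, H2-DMa and H2-Ob in addition, against 14.0% of all genes. In a bulk sample, fewer cells of a type and less RNA per cell cannot be told apart.

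The tumors were compared with ALKKO thymocytes to ask whether the same genes separate lymphoma from transgenic thymus that lacks Dnmt1. The same 6 genes were called lower in ALK, against 12.6% of all genes, and 9 of the 10 did not overlap, against 23.7% of all genes. Log2 fold changes were -3.47 ± 0.53 for H2-Aa, -2.79 ± 0.37 for H2-Ab1, -3.37 ± 0.57 for H2-Eb1 and -3.56 ± 0.57 for Cd74. They were -2.05 ± 0.50 for H2-DMb1 and -3.51 ± 0.74 for Ciita. H2-DMa stood at -1.64 ± 0.57 and was not called (adjusted p = 0.0547), but was called without ALK1 (adjusted p = 0.0121), without KO2 (adjusted p = 0.0164) or without KO3 (adjusted p = 0.0469). H2-Ob stood at -2.83 ± 1.12 (adjusted p = 0.0827) and was called without KO2 (adjusted p = 0.00581). H2-Oa (-0.58 ± 0.49) overlapped, and Ctss (-0.67 ± 0.51), which did not overlap here, was also not called. This comparison and the one with Ctrl share the ALK tumors and are not independent.

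In ALKKO the levels of the class II genes lay near those of Ctrl. Of the 10 genes, 0 were called in ALKKO against Ctrl by edgeR, where 0.181% of all genes were called, and 0 did not overlap, where 17.5% of all genes did not. None had an unadjusted p under 0.05 by edgeR, nor by DESeq2 where it gave a p. The log2 fold changes ran from -0.11 for H2-DMb1 and Cd74 to 0.49 for Ciita, with a median of 0.05. The 95% interval was narrowest for H2-Ab1, from -0.84 to 0.69, and widest for H2-Ob, from -2.21 to 2.31. A change of 1 log2 unit in either direction lay outside the interval for 1 of the 10, H2-Ab1. KO2 entered the spread of this fit, and without it the interval of H2-Ab1 ran from -0.40 to 0.26, that of H2-Ob from -1.14 to 1.26, and such a change lay outside the interval for 7 of the 10, all but Ciita, H2-DMa and H2-Ob. The ALKKO means were 652 ± 4.26 CPM for H2-Aa, against 638 ± 36.8 in Ctrl, and 1647 ± 128 CPM for Cd74, against 1781 ± 103.

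In KO against Ctrl, 0 of the 10 genes were called by edgeR, where 0.0187% of all genes were called, and 0 by DESeq2. At an unadjusted p under 0.05 there were 3 by edgeR (H2-Ob, Ciita and Ctss) and 2 by DESeq2. For H2-Ob, DESeq2 gave no adjusted p here, so its counts do not cover that gene. No gene separated the groups, where 12.4% of all genes tested did. All 10 fitted changes were above 0, with a median of 0.81, and this rested on KO2. With that library left out the median was -0.08, and 8 of the 10 changes were below 0, from -0.34 for H2-Ob to -0.02 for H2-DMa, with Ciita at 0.30 and Ctss at 0.17. In ALKKO against KO, 0 of the 10 were called by edgeR (1 with an unadjusted p under 0.05), against 0.00623% of all genes called. By DESeq2, 0 were called where it gave an adjusted p. There the median was -0.78 with KO2 and 0.14 without it. ALKKO against KO shares its libraries with the comparisons of either group with Ctrl.

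The effect of the Dnmt1 deletion with the transgene (ALKKO against ALK) was set against its effect without it (KO against Ctrl) in an interaction term. Of the 10 genes, 3 were called higher in this difference of differences, against 5.62% of all genes. They were H2-Aa (2.68 ± 0.70, adjusted p = 0.0381), H2-Ab1 (2.29 ± 0.49, adjusted p = 0.0201) and Cd74 (2.88 ± 0.75, adjusted p = 0.0375). H2-Eb1 stood at 2.58 ± 0.75 (adjusted p = 0.0531), Ciita at 1.84 ± 0.95 (adjusted p = 0.238) and H2-DMb1 at 1.34 ± 0.67 (adjusted p = 0.223). Without KO2, 7 were called, these 6 and H2-Ob, against 7.13% of all genes. Leaving out any 1 of the other libraries left 0 to 4 called, with 0 without Ctrl1 or ALKKO3. The arm with the transgene compares thymus with tumor, so the deletion and the tissue cannot be told apart in this term.

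**Figure D2:**
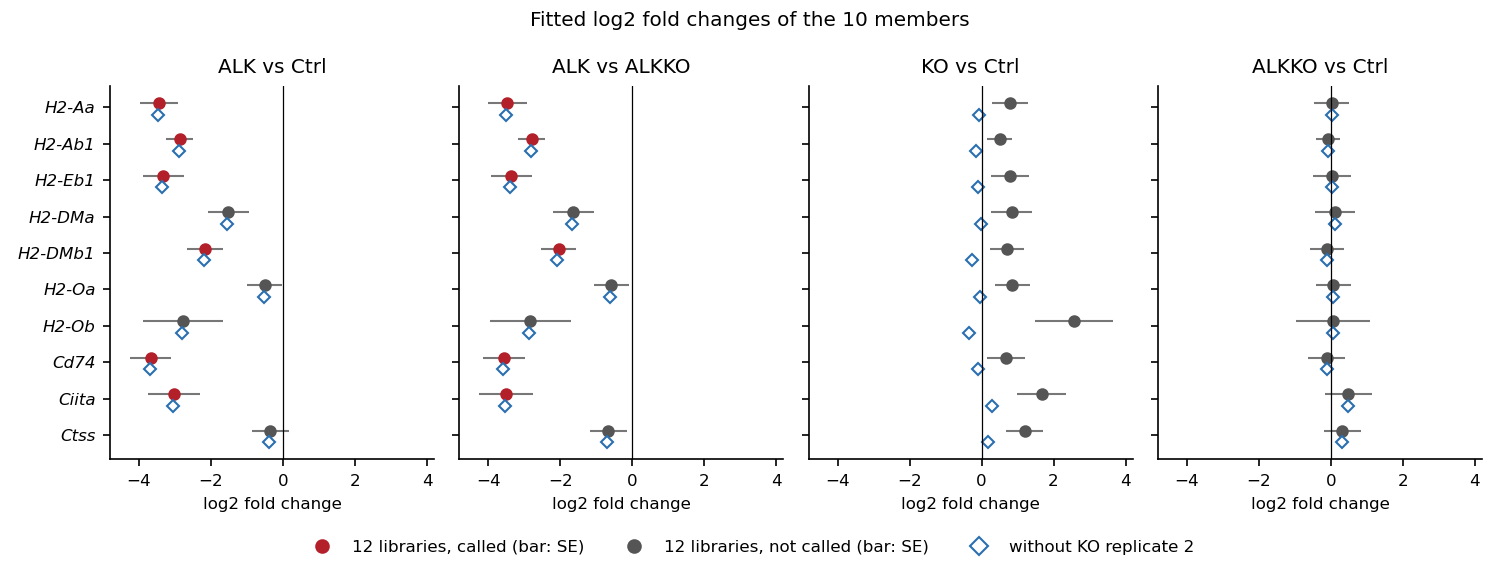
Fitted log2 fold changes of the 10 genes in 4 comparisons (circles, with SE as bars, red where called) and the same values without KO2 (open diamonds). In KO vs Ctrl the circles lie between 0.51 and 2.57 and the diamonds between -0.34 and 0.30, and in the other 3 panels the circles and diamonds lie close together.

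KO2 held the highest level of all 10 genes among the 12 libraries, while it was the highest library for 18.5% of all genes tested. Its excess over the median of the other 8 thymus libraries was uneven. It was 2.58-fold for H2-Ab1, 3.05-fold for Cd74, 3.21-fold for H2-Aa, 3.26-fold for H2-DMa, 3.28-fold for H2-Eb1, 3.38-fold for H2-DMb1 and 3.55-fold for H2-Oa. It was larger for Ctss (4.31-fold) and Ciita (5.58-fold), and largest for H2-Ob (17.1-fold). The other 8 thymus libraries stayed within 1.27-fold of each other for H2-DMa and within 2.54-fold for Ciita, the least and the most variable of the 10. Among these 8, KO3 was the lowest for 8 of the 10 genes. With 1 library on its own there is no replicate, and no test was made of KO2.

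Genes that mark B cells were also high in KO2. The 11 B-cell genes other than Ighm summed to 3422 CPM there, against 88.7 to 155 CPM in Ctrl and 86.8 to 150.4 in ALKKO. Ighm was at 3601 CPM in KO2 and 931 to 1305 in Ctrl. It varied among the other thymus libraries, at 2179 and 890 CPM in KO1 and KO3 and 965, 2644 and 1932 in ALKKO. The plasma cell list summed to 4599.5 CPM in KO2, against 349.9 to 531 in Ctrl, with Jchain at 3729.6. Conventional dendritic cell genes summed to 678 CPM (172 to 229 in Ctrl) and macrophage genes to 3318 CPM (1016 to 1074 in Ctrl). Macrophage genes were also above Ctrl in KO1 (1650 CPM) and ALKKO (1248 to 1452). Thymic epithelial genes went the other way, with a sum of 292 CPM against 2227 to 2702 in Ctrl, and Prss16, a serine protease of the thymic cortex, at 80.1 CPM. Plasmacytoid dendritic cell genes were lower as well, at 751 CPM against 883 to 1122 in Ctrl, with Ccr9 at 309 against 715 to 907. The part of these cells in the class II level of KO2 was not tested.

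The tumors had lower levels of markers of several class II-bearing cell types. The 12 B-cell genes summed to 32.0 to 144 CPM in ALK against 1085 to 1394 in Ctrl, and 8.73 to 24.0 against 88.7 to 155 without Ighm. Of the 12, 4 were called lower and 8 were not called, and none was at or under the floor of 3 counts in all 3 tumors. Over all genes tested 12% were called lower and 8.41% higher, the shares to set beside the counts of each marker list. The 14 thymic epithelial genes summed to 124 to 344.4 CPM against 2227 to 2702, with 9 called lower and 1 (Fezf2) at or under the floor in all tumors. Their most abundant genes were Prss16, at 0.7 to 2.9 CPM in ALK and 878 to 1097 in Ctrl, and Krt18, at 6.9 to 51.9 and 415 to 637 CPM. The 5 not called (Epcam, Krt5, Krt14, Cldn3 and Cldn4) were uneven across the tumors. Epcam was at 1.95, 41.1 and 45.3 CPM in ALK1, ALK2 and ALK3 (43.6 to 53.98 in Ctrl). In ALK3, Krt14 was at 84.3 CPM (31.4 to 39.5 in Ctrl) and Cldn4 at 46.7 (25.1 to 34.5 in Ctrl). Both were below Ctrl in ALK1 and ALK2. Krt5 was below Ctrl in all 3 tumors, and Cldn3 in ALK1 and ALK2.

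Dendritic cell genes were uneven across the tumors. The conventional dendritic cell list summed to 82.4, 76.0 and 227 CPM in ALK1, ALK2 and ALK3, against 172 to 229 in Ctrl, with 5 of 10 called lower (Flt3, Xcr1, Zbtb46, Batf3 and Cd209a). Sirpa and Ccr7, its most abundant genes, are also made by other cells, and Ccr7 was at 1.3, 7.7 and 91.2 CPM in the 3 tumors. Of 7 plasmacytoid dendritic cell genes, 4 were called lower and 1 (Tcf4) higher, with a sum of 154 to 343 CPM in ALK and 883 to 1122 in Ctrl. Most of the Ctrl sum was Ccr9, which thymocytes also make, while most of the ALK sum was Tcf4, at 116, 242 and 220.5 CPM. The plasma cell list summed to 103 to 169 CPM in ALK against 349.9 to 531 in Ctrl, with 4 of 7 called lower (Jchain, Mzb1, Xbp1 and Irf4) and 1 higher (Sdc1).

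Macrophage genes did not follow the same course. The 12 of them summed to 669.5, 609.9 and 1539 CPM in ALK1, ALK2 and ALK3 and to 1016 to 1074 in Ctrl, with 2 called lower (Timd4 and Vcam1) and 10 not called. Lyz2 was at 222, 118 and 597 CPM in the tumors and at 282 to 366 in Ctrl. C1qb was at 119, 101 and 195 CPM in the tumors and at 118 to 126 in Ctrl. ALK3, which had the highest sums of B-cell, dendritic cell, macrophage and epithelial genes of the 3 tumors, had the highest level of 8 of the 10 class II genes, and ALK1 of H2-Ab1 and H2-DMa. ALK3 also had the highest sums of T-lineage, neutrophil and red cell genes and the lowest of plasma cell, stroma and proliferation genes. It came from the oldest mouse, at 31 wk, and a relation over 3 tumors was not tested. The stroma and endothelium list summed to 1225 to 2584 CPM in the tumors against 380.2 to 588 in Ctrl, with 3 of 10 called higher, all collagen genes (Col1a1, Col1a2 and Col3a1), and 7 not called. Neutrophil genes summed to 5.15 to 27.8 CPM in ALK against 52.4 to 76.8 in Ctrl, with 2 of 6 tested called lower. Red cell genes (27.4 to 750.3 CPM in ALK, 388 to 584 in Ctrl) and proliferation genes (2015 to 4527 in ALK, 2400.1 to 3004 in Ctrl) gave 0 calls by edgeR, of 5 and 8 tested, and overlapped between the groups. The part of any of these cells in the fall of the class II genes was not tested.

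**Figure D3:**
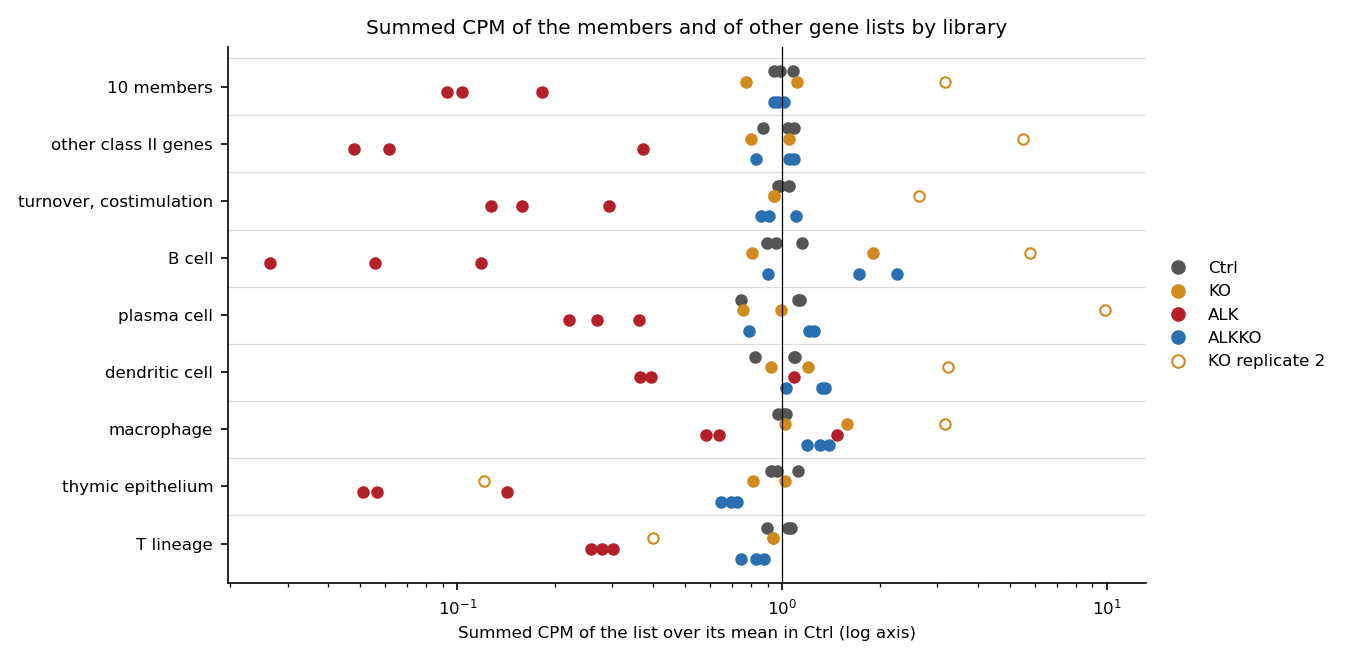
Summed CPM of the 10 members and of 8 other gene lists in each library, divided by the mean of the list in Ctrl (log axis), 1 circle per mouse and KO2 as an open circle. The members' sum was 358 to 701 CPM in the tumors, 3620.3 to 4142 in Ctrl and 12149.5 in KO2, where epithelial and T-lineage sums lay below Ctrl.

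Ratios within a library do not depend on its normalization and show which members moved together. The 3 class II chains together held 0.955 to 1.15 times the CPM of Cd74 in the 8 thymus libraries other than KO2, 1.003 in KO2, and 2.55, 1.28 and 1.15 in the 3 tumors. Ciita held 15.3 to 42.9 CPM per 1000 CPM of Cd74 in the thymus, 54.2 in KO2 and 47.0, 29.0 and 35.7 in the tumors. In this ratio ALK2 and ALK3 lay within the wide thymus range, and ALK1 lay above it. H2-Ab1 over H2-Aa was 0.890 to 1.04 in the thymus, 0.751 in KO2 and 2.71, 1.56 and 0.990 in the tumors. H2-DMa over H2-DMb1 was 1.51 to 2.05 in the thymus, 1.67 in KO2 and 5.20, 1.24 and 1.43 in the tumors, so that ALK1 lay above the thymus range and ALK2 and ALK3 below it.

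Some ratios lay further from the thymus range. Ctss over Cd74 was 0.0617 to 0.108 in the thymus, 0.109 in KO2 and 1.13, 0.771 and 0.542 in the tumors. H2-Oa over H2-Ob was 1.03 to 1.51 in the thymus and 6.38, 17.6 and 4.2 in the tumors, while KO2 lay on the other side at 0.254. H2-Ob over H2-DMb1 was 0.535 to 0.805 in the thymus, 3.30 in KO2 and 0.510, 0.0986 and 0.564 in the tumors. In this last ratio ALK3 lay within the thymus range, ALK1 just under it and ALK2 far below it.

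To rank the members by level, CPM were divided by exon length. In Ctrl the order was Cd74 (1061 CPM per kb), H2-Eb1 (250.3), H2-Ab1 (248), H2-Aa (168), Ctss (90.9), H2-DMb1 (20.8), H2-Oa (19.5), H2-DMa (16.2), H2-Ob (4.28) and Ciita (4.21). Neighbours overlapped between mice for H2-Eb1 and H2-Ab1, for H2-DMb1 and H2-Oa, and for H2-Ob and Ciita. In ALK, Ctss held the second rank at 71.3 CPM per kb, and its range overlapped with that of Cd74 (83.1). The chains followed at 33.9 for H2-Ab1, 24.9 for H2-Eb1 and 15.5 for H2-Aa, and H2-Oa, at 13.7, came close behind them. H2-Ob (0.618) and Ciita (0.518) stayed last. In ALKKO the first 5 ranks were those of Ctrl, none overlapping with the next.

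Of the 10 members, 7 lie within 249 kb of mouse chromosome 17 (GRCm38, from 34092340 at H2-Oa to 34341412 at the end of H2-Eb2), together with genes of other function. Cd74 lies on chromosome 18, Ciita on chromosome 16 and Ctss on chromosome 3. In this stretch 18 of 19 annotated genes were tested, 7 members and 11 others. Of the members 4 were called lower in ALK, H2-Aa (34282744 to 34287823), H2-Ab1 (34257689 to 34269419), H2-Eb1 (34305867 to 34316674) and H2-DMb1 (34153072 to 34160230). Of the 11 others 2 were called lower, H2-DMb2 and Gm20513, and 0 were called higher. Over all genes tested 12% were called lower, so the count of 2 is not read as a result. Gm20513, an antisense gene that overlaps H2-Eb1, averaged only 0.550 CPM in Ctrl and 0.0261 in ALK.

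The antigen processing genes of class I that sit between H2-DMb1 and H2-Ob were not called. Psmb8 and Psmb9, subunits of the immunoproteasome, stood at 0.39 ± 0.21 and 0.25 ± 0.41 on the log2 scale in ALK against Ctrl. Tap1 and Tap2, the peptide transporter, stood at -0.05 ± 0.42 and -0.70 ± 0.18, the latter with an adjusted p of 0.0155 and a change under the threshold of 1. Brd2, a chromatin reader whose annotated span overlaps that of H2-DMa, stood at -0.31 ± 0.11. The median over the 11 other genes was -0.46, and the genes called lower were interspersed with genes near 0.

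**Figure D4:**
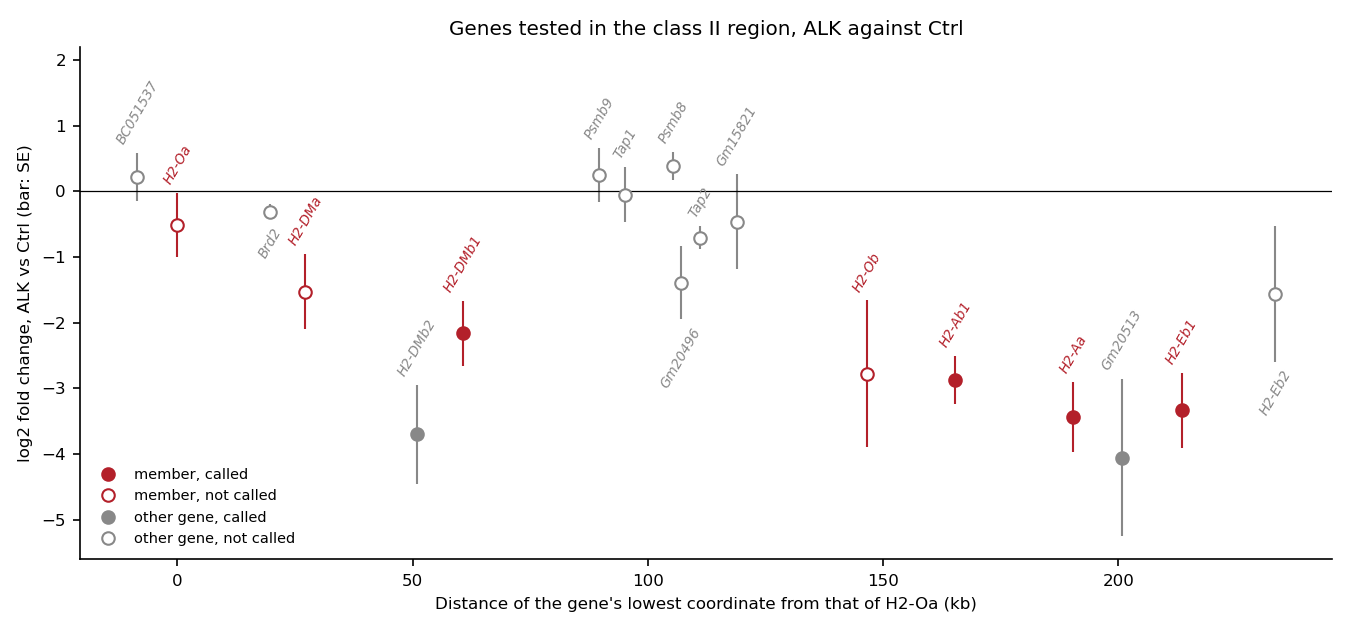
Log2 fold change of ALK against Ctrl (y axis, bars are SE) of the 18 genes tested in the class II region, by the distance in kb of their lowest coordinate from that of H2-Oa (x axis), with members in red and called genes filled. Called genes stand among genes near 0, such as Psmb8 at 0.39 and Tap1 at -0.05.

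Of 2 further class II genes tested, 1 was called lower in ALK. H2-DMb2, the second beta chain of H2-DM, was at 37.1 CPM in Ctrl and 2.89, 1.40 and 4.22 in the tumors (-3.70 ± 0.75, adjusted p = 0.00557). H2-Eb2, a further I-E beta chain gene, was at 17.6 CPM in Ctrl and 0.470, 1.22 and 16.2 in the tumors, with ALK3 within the Ctrl range, and was not called (-1.56 ± 1.03, adjusted p = 0.275). H2-Ea, annotated as a pseudogene, had 2 reads in all and was not tested. KO2 exceeded the Ctrl mean 5.81-fold in H2-DMb2 and 4.86-fold in H2-Eb2.

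Of the 7 genes of the complex through which CIITA acts (Rfx5, Rfxank, Rfxap, Nfya, Nfyb, Nfyc and Creb1), 0 were called in ALK against Ctrl and the median log2 fold change was -0.50. Creb1 was at 282 CPM in Ctrl and 175 in ALK (-0.68 ± 0.20, adjusted p = 0.0257) and Nfya at 175 and 113 (-0.63 ± 0.19, adjusted p = 0.0287), both under the fold threshold. Of 11 genes upstream of Ciita, 9 were tested and 3 were called lower, against 12% of all genes tested. Ifngr1, the ligand-binding chain of the interferon gamma receptor, was at 395 CPM in Ctrl and 86.9, 38.8 and 160.5 in the tumors (-2.05 ± 0.40, adjusted p = 0.00461). Its partner Ifngr2 stood right at the threshold (-1.001 ± 0.33, adjusted p = 0.0447). Irf4, a lymphoid transcription factor that is also on the plasma cell list, stood at -1.998 ± 0.67 (adjusted p = 0.045). The cytokine itself, Ifng, averaged 0.374 CPM in Ctrl and had no read in the tumors, and was not tested.

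Of 8 genes of endolysosomal enzymes and inhibitors, 2 were called lower and 1 higher, where 12% of all genes were called lower and 8.41% higher. Ctsl, the cathepsin that cuts CD74 in the thymic cortex, was at 1780 CPM in Ctrl, 118, 187 and 589.6 in the tumors (-2.58 ± 0.68, adjusted p = 0.0185) and 317 in KO2, where Ctss was highest. Cst3, the secreted cathepsin inhibitor cystatin C, was at 260.5 CPM in Ctrl and 43.2, 52.5 and 90.6 in the tumors (-2.07 ± 0.32, adjusted p = 0.00178). Lgmn, an asparaginyl endopeptidase of the lysosome, was at 63.9 CPM in Ctrl and 138, 127 and 181 in the tumors (1.22 ± 0.27, adjusted p = 0.00796).

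Among 6 genes of class II turnover and costimulation, 5 were called lower in ALK, against 12% of all genes tested. They were Cd83, which stabilizes class II at the surface (-3.86 ± 0.69, adjusted p = 0.00318), Cd40 (-3.59 ± 0.60, adjusted p = 0.00235), the CD28 ligands Cd86 (-2.23 ± 0.65, adjusted p = 0.0266) and Cd80 (-2.17 ± 0.53, adjusted p = 0.0126), and the ubiquitin ligase Marchf8 (-1.58 ± 0.21, adjusted p = 0.000845). Marchf1, the ligase that removes class II from the surface of B cells and dendritic cells, was at 9.34 CPM in Ctrl, 8.85 in ALK and 104 in KO2 and was not called in ALK. Of 6 class I neighbours and regulators 0 were called in ALK. The most abundant of them in Ctrl was Brd2, at 552 CPM, followed by Tap2. In ALKKO against Ctrl and in KO against Ctrl none of the tested genes of these 6 lists was called.

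The genes whose course over the 12 libraries was closest to the mean of H2-Aa, H2-Ab1, H2-Eb1 and Cd74 were found among all 16052 by the root mean square difference of z-scored log2 CPM. Among the nearest that are not members were St6gal1 (0.0886), Cd52 (0.0912), Dnase1l3 (0.095), Gimap3 (0.105), Slfn1 (0.107), Ccnd2 (0.111), Cst3 (0.113), Clec2d (0.134) and Stk17b (0.141), beside a median of 1.32 over all genes. The nearest, St6gal1, a sialyltransferase, was at 107, 103 and 102 CPM in Ctrl, 135, 252 and 87.0 in KO, 4.50, 6.37 and 13.5 in ALK and 109.6, 98.3 and 101 in ALKKO. Dnase1l3, a secreted nuclease, was at 46.4 CPM on average in Ctrl, 214 in KO2 and 0.605, 0.786 and 1.72 in the tumors.

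By the same distance, and apart from the 4 that define the course, H2-DMb1 ranked 54th and Ciita 80th of 16052 genes. H2-Ob ranked 624th (0.426), H2-DMa 1048th (0.505), H2-Oa 2732nd (0.73) and Ctss 2851st (0.742). These distances describe 12 libraries that share 3 tumors and KO2, and they are given without a test.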

How the data were processed

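RNA-seq libraries of 12 mice (3 in each of 4 groups, grouped by genotype as labelled) were analysed. Per the study's methods, tissue was homogenized and stranded, poly(A)-selected libraries were read as 50 nt single ends. The authors trimmed reads with Trim Galore, aligned them to mm10 with STAR and counted them per gene with HTSeq, and the deposited values are these raw counts. The submitters' processing notes also name FastQC, Picard 2.19.2 and DESeq2. The annotation release and the strand setting of the counting are not given in the sources used here. Lines that name no gene (not unique, ambiguous or no feature) held 43.8 to 55.3% of each file and were left out of library sizes and tests.

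Of 50600 gene IDs, 50376 matched GENCODE M21 (GRCm38), which gave symbols, coordinates and exon lengths. The main test was edgeR 4.0.16 (R 4.3.3) with TMM normalization, filterByExpr, 1 term per group over all 12 libraries and a robust quasi-likelihood fit. Benjamini-Hochberg adjustment ran over all 16052 genes tested, and calls needed an adjusted p under 0.05 and a log2 fold change above 1 in size. Standard errors were taken from the F statistics and 95% intervals from the t distribution. Depth sets a floor of 3 counts, or 0.159 to 0.2405 CPM, which covers counting error only. Replicates differed by more than sampling noise. Alternatives were DESeq2 1.42.0, its size factors, other filters, covariates, groups and thresholds, and each library left out. The script was tested on simulated data.

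Named genes were all 10 members, the genes of 6 pathway lists called in ALK against Ctrl (or the 2 most abundant of a list without a call), and the 10 genes nearest in course, by z-scores of log2(CPM + 0.5), of which 1 is not reported here. Genes named beside these (H2-Eb2, H2-Ea, Ifng, Marchf1, the region's class I genes, single markers) were chosen after their values were seen. The members and lists were chosen with earlier results of these data known. Plots were drawn with matplotlib 3.10.9.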

Additional observations from a re-analysis of the deposited data

Results flagged for a closer look

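For 3 of the 10 genes the effect of the Dnmt1 deletion differed between mice with and without NPM-ALK, by the interaction term of the edgeR fit. The difference of differences was 2.68 for H2-Aa (95% interval 1.13 to 4.22), 2.29 for H2-Ab1 (1.19 to 3.38) and 2.88 for Cd74 (1.23 to 4.54). Each is the fitted difference of ALKKO from ALK minus that of KO from Ctrl, and the latter rested on KO2. H2-Ab1 lost its call without Ctrl1 (adjusted p = 0.0565) or without ALKKO3 (adjusted p = 0.0504). H2-Aa lost it in 10 of the 12 fits that left out 1 library and Cd74 in 9, with values from 2.37 to 3.56 and from 2.51 to 3.70, while without KO2 all 3 were called and larger (3.56, 2.97 and 3.70). Tumor against thymus and deletion against no deletion cannot be told apart here.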

How the results depend on the processing

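The 6 calls of ALK against Ctrl became 7 with DESeq2 (H2-DMa added), 8 with sex as a covariate, 7 with only the 2 groups compared (H2-Ob added), 4 with glmTreat, which tests against a log2 change of 1 (H2-DMb1 and Ciita lost), and 6 to 8 with each library left out. ALK against ALKKO gave 7, 8, 7, 5 and 6 to 8. DESeq2 gave no adjusted p for H2-Ob in ALK against Ctrl or KO against Ctrl, so its counts there do not cover that gene. In ALKKO against Ctrl, KO against Ctrl and ALKKO against KO the count stayed at 0 in each alternative run. The count of 3 in the interaction was 1 without a low-count filter, 7 with sex as a covariate, 0 with glmTreat and 0 to 7 with each library left out. The replicate numbers were not used as pairs in the main test. Of 18 same-numbered pairs, 5 correlated above 0.1 in their deviations from the group means (range -0.106 to 0.426). Pairs of other numbers ranged from -0.457 to 0.208, which does not settle whether the numbers pair the samples. With the replicate block the interaction count was 1.

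Signs turned where KO2, the only female, left the fit or was taken up by the sex term, in small differences of ALKKO from Ctrl, and for H2-Ob in the interaction without KO1, KO3 or ALK2. With sex as a covariate KO against Ctrl stood at -0.061 for H2-Aa, -0.15 for H2-Ab1, -0.10 for H2-Eb1, -0.027 for H2-DMa, -0.28 for H2-DMb1, -0.043 for H2-Oa, -0.34 for H2-Ob and -0.11 for Cd74. Over the fits with 1 library left out it ran from -0.059 to 1.12 for H2-Aa, -0.15 to 0.79 for H2-Ab1, -0.093 to 1.13 for H2-Eb1, -0.024 to 1.14 for H2-DMa, -0.27 to 1.05 for H2-DMb1, -0.040 to 1.13 for H2-Oa, -0.34 to 3.08 for H2-Ob and -0.11 to 1.0 for Cd74. For ALKKO against Ctrl these fits ran from -0.012 to 0.069 for H2-Aa, -0.045 to 0.12 for H2-Eb1, -0.086 to 0.25 for H2-Oa and -0.070 to 0.18 for H2-Ob. ALKKO against KO stood with sex as a covariate at 0.092 for H2-Aa, 0.071 for H2-Ab1, 0.13 for H2-Eb1, 0.14 for H2-DMa, 0.16 for H2-DMb1, 0.12 for H2-Oa, 0.40 for H2-Ob, 0.18 for Ciita and 0.15 for Ctss, and ran from -1.10 to 0.094 for H2-Aa, -0.87 to 0.072 for H2-Ab1, -1.10 to 0.13 for H2-Eb1, -1.03 to 0.14 for H2-DMa, -1.17 to 0.16 for H2-DMb1, -1.07 to 0.11 for H2-Oa, -3.03 to 0.39 for H2-Ob, -1.59 to 0.18 for Ciita and -1.28 to 0.16 for Ctss with 1 library left out. The interaction stood at 0.62 for H2-Oa and 0.50 for Ctss with sex as a covariate and ran from -0.53 to 0.65 for H2-Oa, -0.22 to 3.21 for H2-Ob and -0.90 to 0.54 for Ctss. The 95% interval of H2-Ob in ALKKO against Ctrl ran from -2.21 to 2.31 with KO2 in the fit and from -1.14 to 1.26 without it, so that what was detectable for this gene depended on that library.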
